A study of Homo sapiens with 15 samples.

Results

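The genes described here are a set of 38 that carry out glycolysis or are known targets of the response to low oxygen. They were listed by name, with earlier results of these data known. Each is read from its brightest probeset (by mean of 15 arrays) among those annotated with exactly 1 symbol. Of the 38, 35 were measured, out of 18417 genes with such a probeset on the array. PGAM1, CA9 and SLC16A3 had no probeset of their own in the annotation and were not analysed here.

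The study hybridised RNA to Affymetrix whole-transcript arrays, with 5 groups of 3. HUVEC, endothelial cells of the human umbilical vein, were either untreated or kept for 6 h in EGM2 medium with exosomes, the small vesicles that cells release. The vesicles were precipitated with an ExoQuick kit from medium conditioned by Jurkat cells, a human T cell leukaemia line (JK in the sample names), or by JinB8 cells (JINB8), a Jurkat mutant that lacks CD47. The other groups were RNA of the JK exosomes and RNA of the JINB8 exosomes. No group received a mock precipitate of unconditioned medium, so the treated groups share whatever the ExoQuick pellets carry besides vesicles, and JINB8 is a single mutant line. Nothing in the labels tells whether replicates came from separate cultures; the p-values therefore reflect the spread among these arrays alone, and that spread may be technical.

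Glycolysis splits glucose into pyruvate, which cells reduce to lactate or oxidise in mitochondria. When oxygen is scarce, HIF transcription factors are no longer hydroxylated and degraded, bind a short DNA core in regulatory regions, and raise the transcription of glucose transporters, most glycolytic enzymes, pyruvate dehydrogenase kinases and their own hydroxylases. Endothelial cells draw most of their energy from glycolysis even when oxygen is plentiful.

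The HIF core is written ACGTG or GCGTG, and the 250 bases before the first listed RefSeq start (GRCh38.p14) were searched for both on either strand, so that the palindrome CACGTG, which is also the E-box of MYC, counts as 2 ACGTG matches. A promoter was found for 32 of the 35 measured genes. ACGTG was present in 15 of the 32 (46.88%), against 21.08% of 14237 promoters of genes on the array. GCGTG was present in 13 (40.62%), against 39.69%. CACGTG was present in 6 (18.75%), against 7.86%. The promoters of the 4 genes with the highest change in HUVEC with JK exosomes are given first, 5′ to 3′ along the gene, with matches in capitals.
SLC2A1, chr1:42958869-42959118, minus strand: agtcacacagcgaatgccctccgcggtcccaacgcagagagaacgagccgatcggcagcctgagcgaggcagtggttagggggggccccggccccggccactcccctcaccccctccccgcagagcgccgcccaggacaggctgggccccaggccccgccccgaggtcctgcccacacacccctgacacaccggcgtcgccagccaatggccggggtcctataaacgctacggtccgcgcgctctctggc
AK4, chr1:65147302-65147551, plus strand: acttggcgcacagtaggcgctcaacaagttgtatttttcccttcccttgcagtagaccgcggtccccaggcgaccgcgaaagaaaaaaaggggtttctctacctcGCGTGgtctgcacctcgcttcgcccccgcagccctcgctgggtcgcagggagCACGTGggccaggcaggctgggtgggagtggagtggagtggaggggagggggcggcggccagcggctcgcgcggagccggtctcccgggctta
VLDLR, chr9:2621537-2621786, plus strand: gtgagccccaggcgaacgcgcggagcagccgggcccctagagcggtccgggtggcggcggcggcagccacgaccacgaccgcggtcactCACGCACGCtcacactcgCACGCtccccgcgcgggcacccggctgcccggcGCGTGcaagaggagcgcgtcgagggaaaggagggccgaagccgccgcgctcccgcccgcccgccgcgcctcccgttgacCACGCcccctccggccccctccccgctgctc
EGLN3, chr14:33951075-33951324, minus strand: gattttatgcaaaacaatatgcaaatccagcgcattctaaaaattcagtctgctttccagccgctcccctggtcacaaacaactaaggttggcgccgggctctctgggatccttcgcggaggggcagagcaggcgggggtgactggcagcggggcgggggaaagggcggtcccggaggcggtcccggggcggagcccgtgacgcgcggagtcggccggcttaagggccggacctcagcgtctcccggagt
The windows of SLC2A1 and EGLN3 held no match, that of VLDLR held 5 of GCGTG, and that of AK4 held 1 CACGTG and 1 GCGTG. The place of AK4 among these 4 rests on its brighter probeset, since a second one changed by only 0.79 with JK exosomes. The promoters of LDHA, ALDOC and ANKRD37 are shown for contrast, chosen after the matches were seen because they held the most ACGTG.
LDHA, chr11:18394313-18394562, plus strand: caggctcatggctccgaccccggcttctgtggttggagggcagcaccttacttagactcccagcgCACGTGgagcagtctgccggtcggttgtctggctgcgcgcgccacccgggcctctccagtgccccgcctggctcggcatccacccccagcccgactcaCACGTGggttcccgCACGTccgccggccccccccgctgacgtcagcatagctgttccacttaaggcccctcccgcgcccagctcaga
ALDOC, chr17:28576896-28577145, minus strand: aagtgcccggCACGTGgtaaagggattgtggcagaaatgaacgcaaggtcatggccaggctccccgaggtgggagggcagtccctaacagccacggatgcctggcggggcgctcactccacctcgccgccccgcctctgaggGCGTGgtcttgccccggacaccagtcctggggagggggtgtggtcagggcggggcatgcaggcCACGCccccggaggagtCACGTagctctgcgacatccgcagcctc
ANKRD37, chr4:185396591-185396840, plus strand: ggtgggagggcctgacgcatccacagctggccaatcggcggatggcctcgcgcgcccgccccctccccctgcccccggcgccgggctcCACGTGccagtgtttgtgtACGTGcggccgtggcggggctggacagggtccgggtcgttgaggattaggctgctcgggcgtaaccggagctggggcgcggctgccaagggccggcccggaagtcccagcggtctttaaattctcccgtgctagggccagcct
Matches of ACGTG began 73 to 185 bases before the start in LDHA. Of 25 promoters of genes higher in both treated groups, 13 held ACGTG, and of the 7 others 2 did, those of GAPDH and ALDOA. GCGTG was held by 13 of the 25 and 0 of the 7. A match is a run of letters in the window and shows no binding.

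The deposited log2 values of untreated HUVEC stood on another level, with array medians averaging 6.97 ± 0.06 (SD, n = 3), against 5.08 to 5.18 on the 12 other arrays. As deposited, the median gene changed by -1.68 with JK and -1.71 with JINB8 exosomes, and 99.3% and 99.1% of genes were lower. Changes against untreated HUVEC are therefore given after quantile normalization of the 9 HUVEC arrays, relative to that shift; in these comparisons treatment and batch cannot be told apart. The HUVEC label was borne out by 16 endothelial markers, whose median signal lay at the 94.9th to 97.0th percentile of genes on HUVEC arrays and at the 42.4th to 47.0th on exosome RNA arrays. T cell markers lay at the 11.1th to 18.2th percentile on HUVEC arrays and at the 68.4th to 75.9th on exosome RNA arrays. A higher place on exosome RNA arrays was not particular to them. Mural cell and fibroblast markers went from the 28.6th to 46.8th percentile on HUVEC arrays to the 54.8th to 58.7th there. In bulk RNA, fewer cells of a type and less RNA per cell cannot be told apart. JINB8 and JK exosome RNA differed in CD47 signal by 0.02 ± 0.09 (SE, limma adjusted p = 0.988). This does not check the labels: a mutant may still make the transcript, and the CD47 signal was low in both. It read 4.58 to 4.94 on the exosome RNA arrays, below their medians of 5.08 to 5.14.

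**Figure D1:**
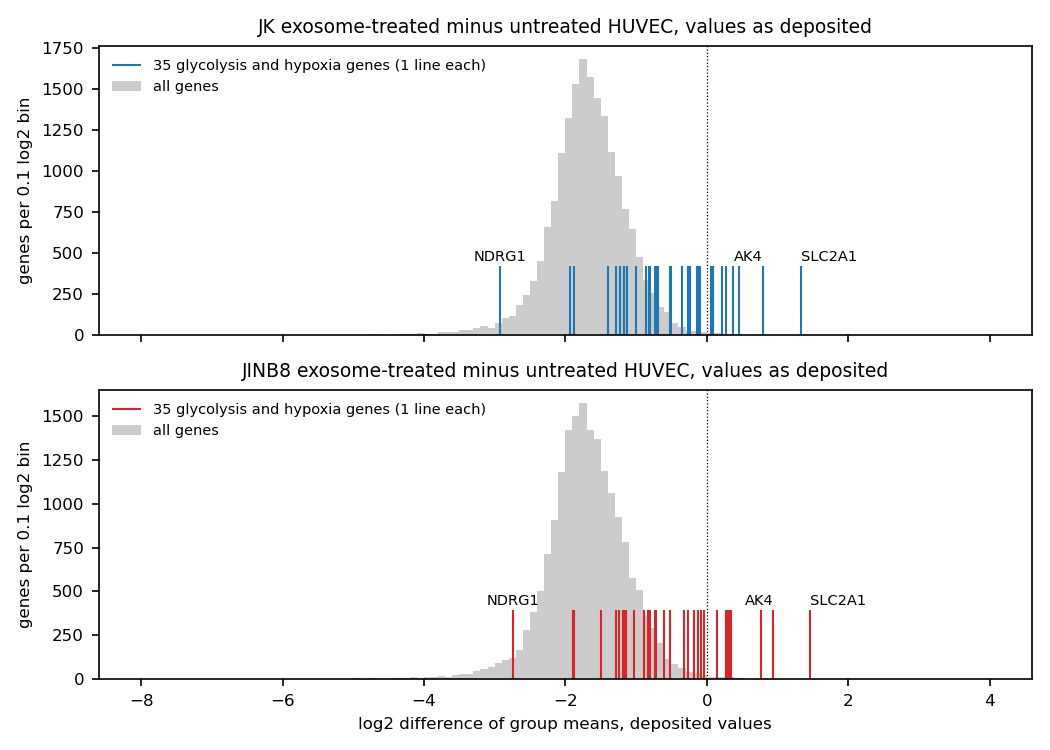
Differences of group means of the deposited log2 values, treated minus untreated HUVEC (x axis), as counts of genes per 0.1 bin in grey (y axis), with 1 line for each of the 35 genes. The grey peaks centre near -1.68 and -1.71, 32 of the 35 lines lie to the right of the median gene in each panel, and NDRG1 lies to the left, at -2.92 and -2.74.

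The first question was how these genes differed in endothelial cells after exposure to T cell exosomes. Relative to the array-wide shift, glucose transporters, pyruvate dehydrogenase kinases, the HIF hydroxylase EGLN3 and most glycolytic enzymes rose with both kinds of exosomes, while NDRG1 fell. At an adjusted p under 0.05 by limma, 30 of the 35 were higher with JK exosomes and 4 lower, against 26.2% higher and 22.4% lower among all genes. With JINB8 exosomes 27 were higher and 4 lower, against 26.0% and 23.3%. The median change of the 35 was 0.77 and 0.82, that of all genes 0.022 and 0.017. The 2 comparisons share the untreated arrays. In both, the same 27 genes were higher and the same 4 (HK1, ALDOA, GAPDH and NDRG1) lower, and in each comparison 14 rose at least 2-fold, against 2.27% of all genes with JK exosomes and 2.55% with JINB8. On the deposited scale the median of the 35 was -0.69 and -0.73, and 5 of them were higher and 21 lower with JK exosomes (0.163% of all genes were higher), and 6 and 22 with JINB8 (0.185%). With median centring 32 were higher and 1 lower in each, and of all genes 6462 were higher and 3587 lower with JK, and 7025 and 3450 with JINB8. Many of the 35 are bright: 16 were among the 1842 genes of highest signal, where 12 of them were higher and 3 lower with JK exosomes, against 30.9% and 27.3% of genes there.

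**Figure D2:**
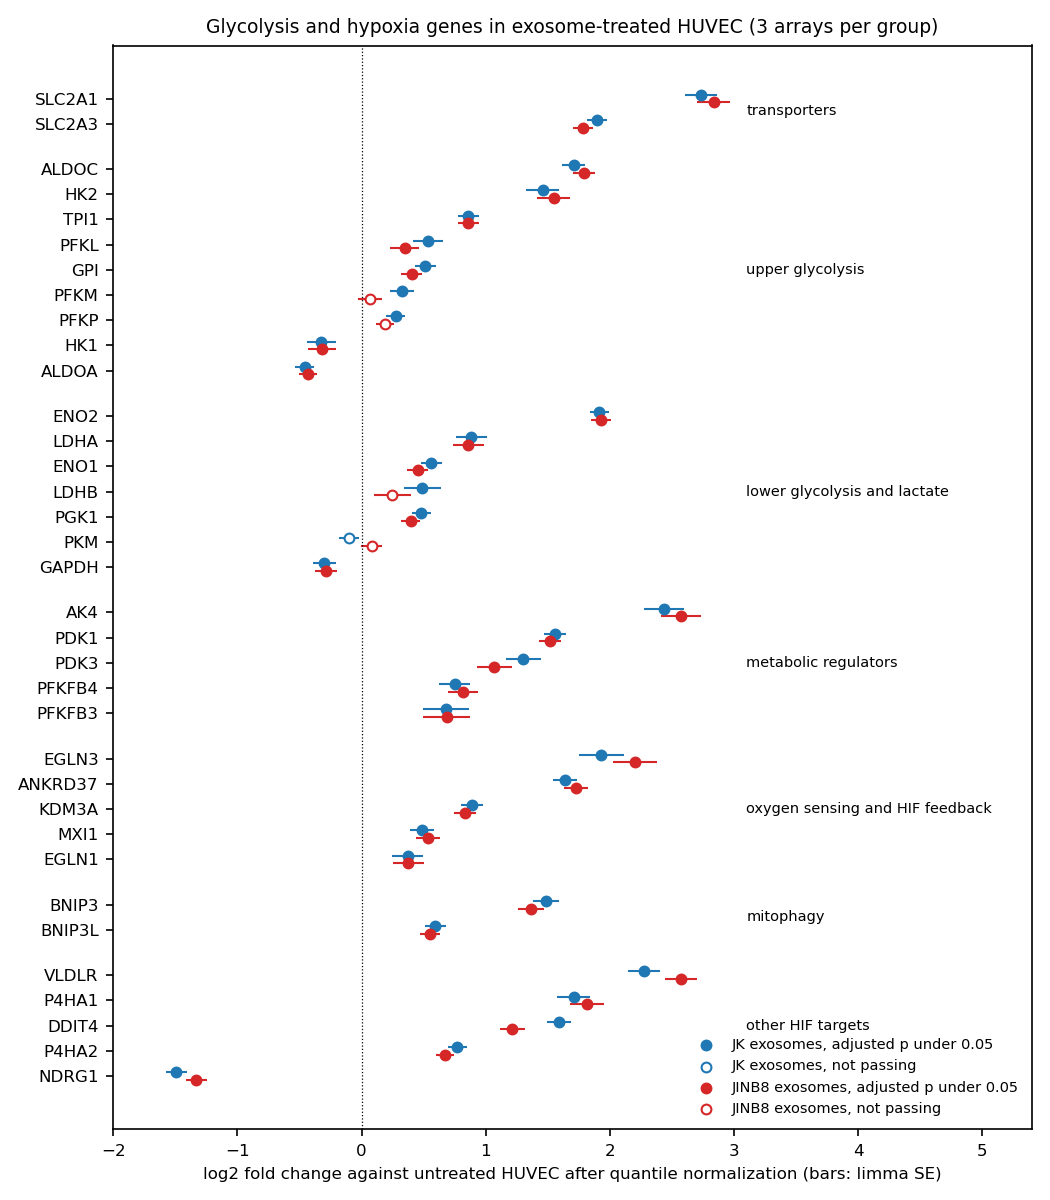
Log2 fold change against untreated HUVEC after quantile normalization (x axis, bars are limma's SE) for the 35 genes by role, with JK (blue) and JINB8 (red) exosomes, filled where the adjusted p is under 0.05. SLC2A1, AK4 and VLDLR lie farthest right and NDRG1 farthest left at -1.49 and -1.33; GAPDH, at -0.30 and -0.28 here, turns positive with median centring (0.61 and 0.60), and as deposited most points to the right of 0 turn negative.

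Both measured glucose transporters rose. SLC2A1 (GLUT1), the main carrier of basal glucose uptake, had normalized log2 values of 8.83, 8.75 and 8.85 on the untreated arrays, 11.38, 11.46 and 11.80 with JK exosomes and 11.84, 11.72 and 11.39 with JINB8 exosomes. Its groups were far apart, and the treated groups overlapped each other. The change was 2.73 ± 0.13 (SE, n = 3 per group, adjusted p = 6.89e-08), or 6.65-fold, with JK and 2.84 ± 0.13 (adjusted p = 4.81e-08), or 7.15-fold, with JINB8. SLC2A1 was also higher on the deposited scale, by 1.33 and 1.46. SLC2A3 (GLUT3), a carrier of high glucose affinity, read 7.85, 7.80 and 7.86 untreated, 9.65, 9.85 and 9.70 with JK and 9.54, 9.66 and 9.66 with JINB8. It rose by 1.89 ± 0.08 and 1.78 ± 0.08, and by 0.37 and 0.28 as deposited.

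In the upper part of the pathway, from glucose to triose phosphates, 7 of 9 genes rose with JK exosomes and 5 with JINB8, and 2 fell with each. The isoforms of hexokinase, which traps glucose as glucose phosphate, went in opposite directions. HK2, the inducible form, read 6.60, 6.10 and 6.25 untreated, 7.69, 7.61 and 8.02 with JK and 7.89, 7.91 and 7.78 with JINB8, a rise of 1.46 ± 0.14 (adjusted p = 8.11e-06) and 1.55 ± 0.14 (adjusted p = 5.02e-06). HK1, the widely expressed form, fell by 0.32 ± 0.11 in each (adjusted p = 0.0350 and 0.0361), though its call was lost in 7 of 18 analyses of each comparison. The same split appeared in aldolase, which cleaves fructose bisphosphate. ALDOC read 6.86, 6.70 and 6.83 untreated, 8.36, 8.50 and 8.66 with JK and 8.58, 8.60 and 8.58 with JINB8, a rise of 1.71 ± 0.09 and 1.79 ± 0.09. ALDOA read 9.34, 9.46 and 9.42 untreated, against 8.92 to 9.02 on the 6 treated arrays, and fell by 0.46 ± 0.07 and 0.43 ± 0.07 (adjusted p = 4.41e-04 and 6.14e-04), which median centring reduced to 0.15 and 0.05, neither passing. In both isoform pairs, the treated and untreated values did not overlap for either member, but for HK1 they nearly met. It read 8.1057 on JK-treated replicate 3 and 8.1127 on untreated replicate 2. The share of all genes without such overlap was not counted.

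The other upper enzymes changed less. TPI1, triose phosphate isomerase, rose by 0.86 ± 0.09 with each kind of exosome. A second TPI1 probeset gave 0.38 and 0.34. GPI, the glucose phosphate isomerase, rose by 0.51 ± 0.08 and 0.40 ± 0.08. Of the phosphofructokinase subunits, which form the committed step of glycolysis, PFKL (liver type) rose by 0.54 ± 0.12 and 0.35 ± 0.12; the JINB8 call was kept in 12 of 18 analyses and lost without untreated replicate 2 (0.23, adjusted p = 0.111, the highest) or without any 1 of the JINB8-treated arrays. PFKM (muscle type) rose by 0.33 ± 0.10 with JK exosomes, a call lost without untreated replicate 2 (0.24) or JK-treated replicate 2 (0.29), and gave 0.07 ± 0.10 (adjusted p = 0.591) with JINB8. PFKP (platelet type) rose by 0.27 ± 0.07 with JK and gave 0.19 ± 0.07 (adjusted p = 0.0530) with JINB8. The JINB8 against JK difference of neither subunit passed its own test (adjusted p = 0.474 for PFKM and 0.887 for PFKP).

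In the lower part, from glyceraldehyde phosphate to lactate, 5 of 7 genes rose with JK exosomes and 4 with JINB8. ENO2, an enolase best known from neurons and a HIF target, changed most: it read 6.85, 6.88 and 6.79 untreated, 8.70, 8.72 and 8.85 with JK and 8.83, 8.77 and 8.71 with JINB8. That is a rise of 1.91 ± 0.08 (adjusted p = 1.98e-08) and 1.93 ± 0.08 (adjusted p = 1.72e-08), or 3.77-fold and 3.81-fold. ENO1, the common enolase, rose by 0.56 ± 0.08 and 0.45 ± 0.08. LDHA, the lactate dehydrogenase subunit that favours lactate formation, read 11.72, 11.17 and 11.64 untreated, 12.36, 12.35 and 12.47 with JK and 12.38, 12.39 and 12.34 with JINB8. It rose by 0.88 ± 0.13 and 0.86 ± 0.13 (adjusted p = 1.70e-04 and 1.92e-04). LDHB, the other subunit, rose by 0.49 ± 0.15 with JK (adjusted p = 0.0164) and gave 0.25 ± 0.15 with JINB8 (adjusted p = 0.182); the JK call was lost without untreated replicate 2 (0.33, adjusted p = 0.0616, the highest of 18 analyses, the lowest being 8.88e-05) or without JK-treated replicate 1 or 2. PGK1, which yields the first ATP of the pathway, rose by 0.48 ± 0.08 and 0.40 ± 0.08.

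GAPDH, often used as a reference transcript, read 12.77, 12.77 and 12.57 untreated, 12.38, 12.47 and 12.35 with JK and 12.29, 12.52 and 12.44 with JINB8. It was lower by 0.30 ± 0.09 and 0.28 ± 0.09 (adjusted p = 0.0176 and 0.0220), but 0.61 and 0.60 higher with median centring. Its direction against untreated cells thus depends on the scaling. PKM, pyruvate kinase, gave -0.10 ± 0.08 and 0.08 ± 0.08 and passed in neither comparison, though with median centring it was 0.39 and 0.67 higher.

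**Figure D3:**
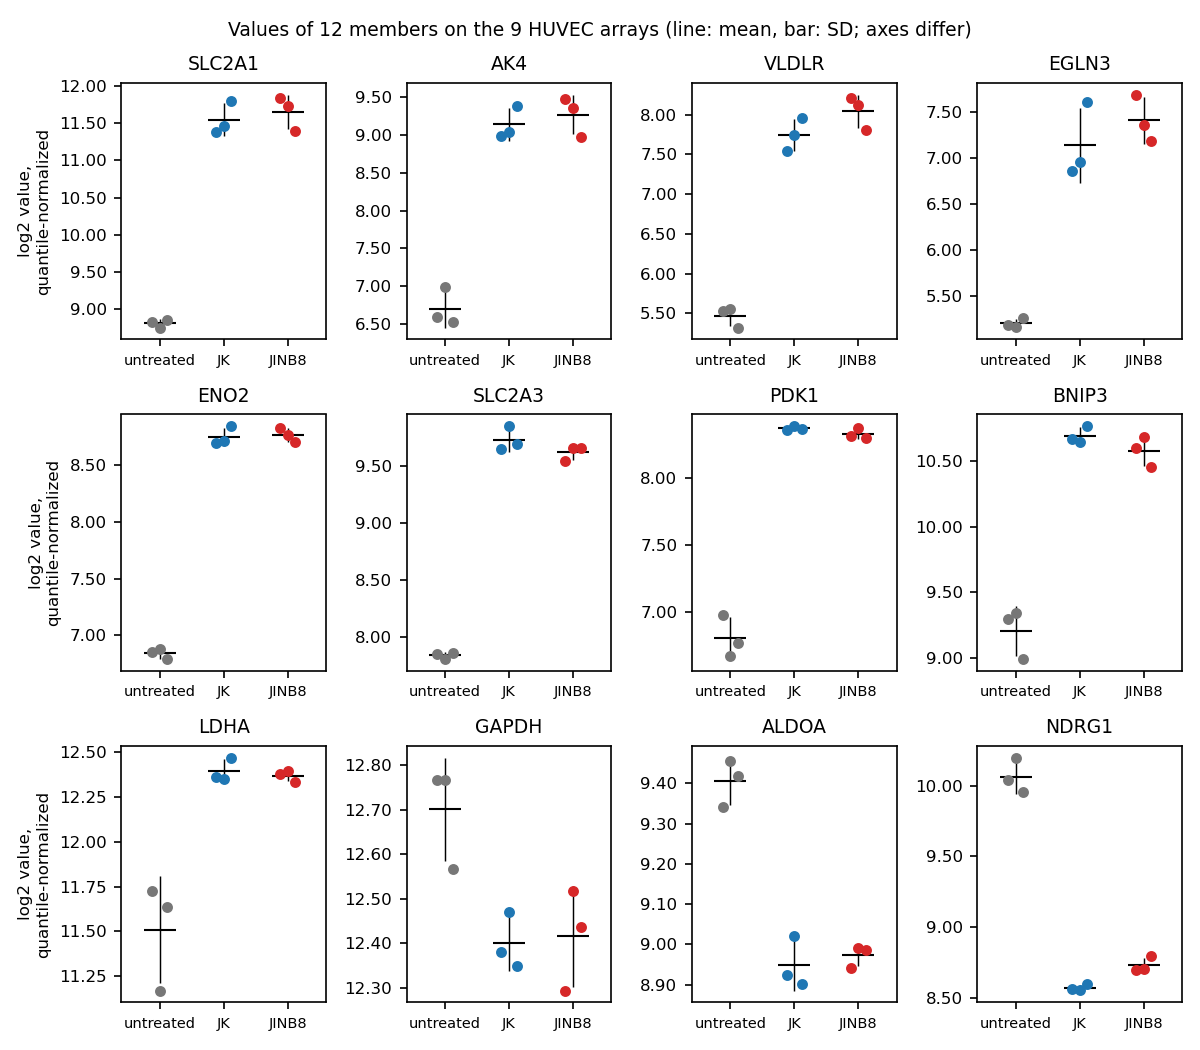
Quantile-normalized log2 values (y axes, which differ) of 12 genes on the 9 HUVEC arrays, 1 point per array, with group mean (line) and SD (bar). For SLC2A1 the untreated points lie at 8.75 to 8.85 and the treated ones at 11.38 to 11.84, whereas NDRG1 falls from 9.95 or more to 8.79 or less; GAPDH is lower here and higher with median centring.

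All 5 regulators of metabolic flux rose with both kinds of exosomes. AK4, an adenylate kinase of the mitochondrial matrix, read 6.59, 6.99 and 6.52 untreated, 8.99, 9.04 and 9.39 with JK and 9.48, 9.36 and 8.97 with JINB8. It rose by 2.44 ± 0.16 and 2.57 ± 0.16 (adjusted p = 6.82e-07 and 4.61e-07). A second AK4 probeset gave 0.79 and 0.84, the same direction at a much smaller size. All other AK4 values given here are those of the brighter probeset, so the size of its rise is not settled. Whether each probeset lies at the AK4 gene itself was not checked. PDK1, a kinase that switches off pyruvate dehydrogenase and so keeps pyruvate out of mitochondrial oxidation, read 6.98, 6.67 and 6.77 untreated and 8.30 to 8.38 on the 6 treated arrays. It rose by 1.56 ± 0.09 and 1.52 ± 0.09. PDK3, a kinase of the same family, rose by 1.30 ± 0.14 and 1.07 ± 0.14. PFKFB3 and PFKFB4, bifunctional enzymes that set the level of the sugar phosphate activating phosphofructokinase, rose by 0.68 ± 0.19 and 0.75 ± 0.12 with JK and by 0.68 ± 0.19 and 0.82 ± 0.12 with JINB8. PFKFB3, which drives vessel sprouting in endothelial cells, had the widest spread of the 35 within HUVEC groups (pooled SD 0.29): it read 8.65, 8.57 and 9.28 with JK and 9.14, 8.88 and 8.50 with JINB8, above 8.12 to 8.18 untreated.

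The genes of oxygen sensing and HIF feedback rose too, all 5 with each kind of exosome. EGLN3, a prolyl hydroxylase that marks HIF for degradation and is itself induced by HIF, read 5.20, 5.17 and 5.26 untreated, 6.86, 6.95 and 7.60 with JK and 7.69, 7.36 and 7.19 with JINB8. It rose by 1.93 ± 0.18 and 2.20 ± 0.18 (adjusted p = 7.75e-06 and 2.77e-06). ANKRD37, an ankyrin-repeat protein induced by low oxygen, read 5.79, 5.70 and 5.84 untreated and 7.33 to 7.67 on treated arrays, a rise of 1.64 ± 0.10 and 1.73 ± 0.10. KDM3A, a histone demethylase and HIF target, rose by 0.89 ± 0.09 and 0.83 ± 0.09. MXI1, which opposes MYC, rose by 0.49 ± 0.09 and 0.54 ± 0.09. EGLN1, the main HIF hydroxylase in most cells, rose by 0.37 ± 0.12 and 0.38 ± 0.12 (adjusted p = 0.0285 and 0.0262), a call kept in 12 and 13 of 18 analyses.

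The mitophagy receptors BNIP3 and BNIP3L, which tag mitochondria for removal, rose by 1.49 ± 0.10 and 0.60 ± 0.08 with JK and by 1.37 ± 0.10 and 0.55 ± 0.08 with JINB8. BNIP3 read 9.30, 9.34 and 8.99 untreated, 10.67, 10.64 and 10.77 with JK and 10.60, 10.68 and 10.45 with JINB8, with no overlap of treated and untreated arrays.

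Of the 5 other measured HIF targets, 4 rose and 1 fell. VLDLR, a receptor for lipoproteins, read 5.53, 5.56 and 5.32 untreated, 7.54, 7.74 and 7.95 with JK and 8.20, 8.12 and 7.81 with JINB8. It rose by 2.27 ± 0.13 (4.84-fold) and 2.57 ± 0.13 (5.95-fold). The catalytic subunits of the collagen prolyl hydroxylase, P4HA1 and P4HA2, rose by 1.71 ± 0.13 and 0.77 ± 0.07 with JK and by 1.82 ± 0.13 and 0.67 ± 0.07 with JINB8. DDIT4 (REDD1), an inhibitor of mTORC1 signalling, read 6.53, 6.29 and 6.35 untreated, 8.12, 8.02 and 7.81 with JK and 7.60, 7.58 and 7.64 with JINB8, a rise of 1.59 ± 0.10 and 1.22 ± 0.10. Every JINB8 value of DDIT4 lay below every JK value. NDRG1, a gene induced by low oxygen and other stresses in many cells, went the other way: it read 10.04, 10.20 and 9.95 untreated, 8.56, 8.56 and 8.60 with JK and 8.70, 8.71 and 8.79 with JINB8. NDRG1 fell by 1.49 ± 0.08 (adjusted p = 2.03e-07) with JK and fell by 1.33 ± 0.08 (adjusted p = 4.31e-07) with JINB8. On the deposited scale it gave -2.92 and -2.74.

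Across 18 analyses that normalized the arrays and called by adjusted p, the 2 comparisons with untreated cells kept 25 of the 35 genes higher and 1, NDRG1, lower throughout (PFKFB4, left out by the filter on dim genes, in all others). The 18 reuse the same arrays, and how many of all genes kept a call throughout was not counted. In single ones of these analyses 19.7% to 35.1% of all genes were higher with JK exosomes and 19.3% to 38.1% with JINB8. Calling by an unadjusted p with a 1.5-fold change instead gave 21 higher with JK and 20 with JINB8, against 9.07% and 9.65% of all genes. On the deposited scale SLC2A1, AK4, VLDLR, SLC2A3 and ENO2 were higher in both, and P4HA1 with JINB8 exosomes (0.34, adjusted p = 0.0466). AK4 was then higher by 0.79 and 0.94, VLDLR by 0.46 and 0.76, and ENO2 by 0.27 and 0.30.

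Other genes around the pathway were counted from lists with the same test, and each count is to be read against the shares of all genes, 26.2% higher and 22.4% lower with JK exosomes and 26.0% and 23.3% with JINB8. Of 15 HIF subunits and regulators 4 (26.7%) were higher and 2 (13.3%) lower in each comparison, so the share higher was that of all genes, and the median was -0.065 and 0.047. OS9, a lectin of protein quality control, rose by 0.57 ± 0.13 and 0.75 ± 0.13, and ARNT2, a partner subunit of HIF, by 0.40 ± 0.09 and 0.34 ± 0.09. ELOC, the elongin C subunit of the VHL ubiquitin ligase, fell by 0.51 ± 0.08 and 0.48 ± 0.08, and CUL2, its scaffold, fell by 0.34 ± 0.08 with JK and gave -0.20 ± 0.08 (adjusted p = 0.0686) with JINB8. The oxygen-regulated subunits, named after their values were seen, differed: HIF1A gave 0.15 ± 0.10 (adjusted p = 0.226) with JK and rose by 0.33 ± 0.10 with JINB8, and EPAS1 (HIF2A), the subunit prominent in endothelium, rose by 0.38 ± 0.13 and 0.67 ± 0.13. As deposited these 6 named regulators were all negative. Of 34 other genes known to be induced by low oxygen 21 (61.8%) were higher and 7 (20.6%) lower with JK exosomes (median 0.58), and 21 and 6 with JINB8 (median 0.66). ANGPTL4, a secreted inhibitor of lipoprotein lipase, rose by 1.47 ± 0.08 and 1.35 ± 0.08. WSB1, a ubiquitin ligase adaptor, rose by 1.45 ± 0.09 and 1.42 ± 0.09, and ANKZF1 by 1.24 ± 0.08 and 1.14 ± 0.08. GBE1, the glycogen branching enzyme, fell by 1.32 ± 0.08 and 1.30 ± 0.08.

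Of 22 further isoforms and sugar phosphate enzymes 6 (27.3%) were higher and 5 (22.7%) lower with JK exosomes, and 6 and 6 with JINB8, shares near those of all genes. PGM1, which links glycogen to glycolysis, rose by 2.06 ± 0.11 and 2.05 ± 0.11, and was higher on the deposited scale too (0.43 and 0.43). SLC2A14, a close relative of SLC2A3 whose probes may share its transcripts, rose by 1.07 ± 0.09 and 1.01 ± 0.09. BPGM, which makes the bisphosphoglycerate that regulates haemoglobin, fell by 0.95 ± 0.10 and 1.10 ± 0.10, and the sugar transporter SLC2A6 fell by 1.14 ± 0.08 and 1.40 ± 0.08. Of 9 pentose phosphate genes 4 were higher and 1 lower with JK exosomes, and 3 and 1 with JINB8. TIGAR, a phosphatase that diverts sugar into that branch, rose by 0.64 ± 0.10 and 0.82 ± 0.10, and TALDO1, transaldolase, fell by 0.47 ± 0.10 and 0.56 ± 0.10. PGD rose by 0.51 ± 0.16 and 0.49 ± 0.16, and RPE by 0.49 ± 0.08 and 0.37 ± 0.08.

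Of 24 genes of pyruvate oxidation and the tricarboxylic acid cycle 6 (25.0%) were higher and 7 (29.2%) lower with JK exosomes, and 7 and 8 with JINB8. PDK4, another pyruvate dehydrogenase kinase, rose by 2.21 ± 0.10 in each comparison, and PC, pyruvate carboxylase, by 0.89 ± 0.12 and 0.97 ± 0.12. The cycle enzymes IDH3G and MDH2 fell by 0.70 ± 0.07 and 0.57 ± 0.08 with JK and by 0.77 ± 0.07 and 0.72 ± 0.08 with JINB8. Of the 16 endothelial markers 5 were higher and 2 lower with JK exosomes, and 5 and 3 with JINB8. Of 18 T cell markers 3 were higher and 5 lower in each. Of 15 mural cell and fibroblast markers 3 were higher, 4 lower and 8 not called in each, with medians of 0.016 and 0.049. TAGLN, an actin-binding protein of smooth muscle, stood far from these medians, at -5.06 ± 0.10 and -4.96 ± 0.10, and does not stand for its list. What part any of these had in the changes of the 35 genes was not tested.

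The second question was whether exosomes from CD47-deficient cells left another level of these genes in HUVEC than those of the parent line. On the deposited values of the treated arrays, whose medians were alike, none of the 35 passed, and the shares called among all genes were 0% higher and 0% lower. The changes of the 35 ran from -0.40 to 0.31 with a median of -0.0064. At an unadjusted p under 0.05, 4 of the 35 and 1678 of all genes (9.11%) differed. Those 4 were DDIT4 at -0.40 ± 0.11 (adjusted p = 0.276), PFKM at -0.26 ± 0.10, VLDLR at 0.31 ± 0.13 and PKM at 0.22 ± 0.10. PKM and NDRG1 were higher and GPI, PFKM, ENO1 and DDIT4 lower with no overlap of the groups, against 7.68% and 9.78% of all genes. With array weights DDIT4 passed (-0.47 ± 0.09, adjusted p = 0.0235), in a setting that called 1.30% of all genes higher and 0.749% lower. For SLC2A1 the difference was 0.13 ± 0.14 and for LDHA -0.02 ± 0.12, so changes of that size were within the error. A permutation test of 3 arrays against 3, exact and two-sided, has 0.1 as its smallest possible p.

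The third question was whether the exosome RNA itself differed between the lines. In JINB8 exosome RNA, 6 of the 35 genes were higher than in JK exosome RNA and 0 lower (limma, adjusted p under 0.05), against 0.668% and 0.0109% of all genes. At an unadjusted p under 0.05 the count was 13 higher and 0 lower, against 5.21% of all genes higher. The 6 were enzymes of the triose and lactate stages: LDHA, ENO1, LDHB, GAPDH, PGK1 and TPI1. None of the regulators, oxygen sensors or other HIF targets passed. Some of these were dim: in JK exosome RNA KDM3A averaged 4.11 and PDK3 4.12, below the array medians of 5.08 to 5.14. Others read above those medians, such as ANKRD37 at 6.20 and NDRG1 at 6.18, against 6.07 for PGK1. Levels of different probesets do not show whether a gene was detected.

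LDHA read 7.51, 7.42 and 7.38 in JK exosome RNA and 8.47, 8.69 and 9.01 in JINB8, and was higher by 1.29 ± 0.12 (2.44-fold, adjusted p = 2.18e-04). ENO1 read 7.42, 7.53 and 7.49 against 8.50, 8.44 and 8.97, and was higher by 1.16 ± 0.12 (2.23-fold, adjusted p = 5.37e-04). LDHB read 6.39, 6.89 and 6.58 against 7.47, 7.37 and 7.60, and was higher by 0.85 ± 0.12 (1.81-fold, adjusted p = 0.00359). The groups of these 3 genes lay apart, and the calls of all 3 were kept in 17 of 17 analyses. GAPDH read 9.81, 9.59 and 9.38 against 10.10, 10.39 and 10.66, a difference of 0.79 ± 0.14 (adjusted p = 0.0194). PGK1 read 5.98, 6.09 and 6.14 against 6.73, 6.65 and 7.13, a difference of 0.77 ± 0.11 (adjusted p = 0.00721). TPI1 read 6.94, 7.11 and 6.91 against 7.33, 7.41 and 7.49, a difference of 0.42 ± 0.08 (adjusted p = 0.0391). Their groups did not overlap either, but the calls were less steady: TPI1 kept its call in 6 of 17 analyses, GAPDH in 10 and PGK1 in 16. GAPDH gave 0.33 (adjusted p = 0.258) after quantile normalization of the 6 arrays, within adjusted p-values of 0.00541 to 0.640 over its analyses.

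**Figure D4:**
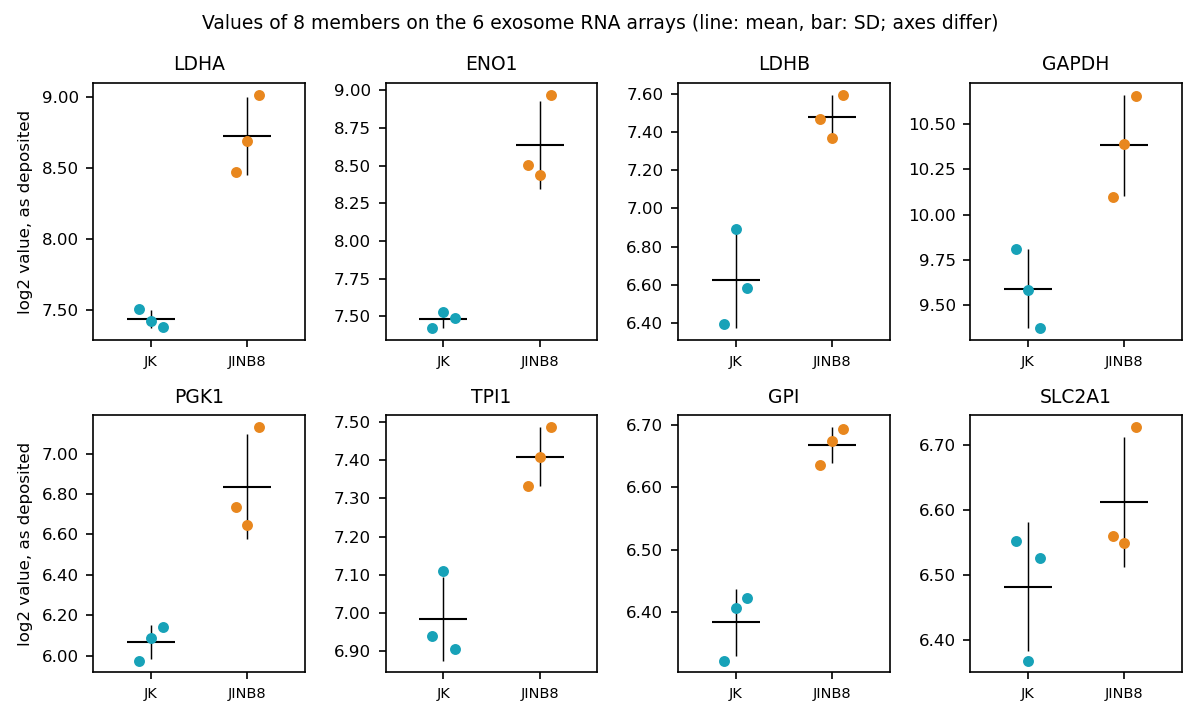
Deposited log2 values (y axes, which differ) of 8 genes on the 3 JK and 3 JINB8 exosome RNA arrays, 1 point per array, with group mean (line) and SD (bar). LDHA reads 7.38 to 7.51 in JK and 8.47 to 9.01 in JINB8 exosome RNA, GPI is separated without passing (0.28 ± 0.07, adjusted p = 0.151), and the SLC2A1 groups overlap.

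In all, 14 of the 35 were higher in JINB8 exosome RNA with no overlap of the groups and 0 lower, against 7.35% and 5.52% of all genes. Besides the 6, these were GPI, PFKP, ALDOA, HK1, PKM, BNIP3, BNIP3L and P4HA2, with differences from 0.14 to 0.41. The median difference was 0.12 for the 35 and 0.00314 for all genes. Calls were more frequent at high signal: of the 123 genes called higher, 82 were among the 1842 genes of brightest exosome RNA signal, where 4.45% of genes were higher. Those 1842 held 14 of the 35, the 6 called ones among them. The mean log2 signal of T cell markers was 5.64 to 5.79 on JK and 5.90 to 5.95 on JINB8 exosome RNA arrays, with 2 of 18 markers higher, LEF1 (0.61 ± 0.08) and CD1E (1.16 ± 0.11). The part of signal and of T cell RNA in the difference of the 6 genes was not tested.

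Whether the JINB8 against JK difference was another in exosome RNA than in recipient HUVEC was tested as an interaction over these 12 arrays. It passed for 5 of the 35, all higher, against 0.684% higher and 0.103% lower among all genes. LDHA differed by 1.31 ± 0.15 (adjusted p = 0.00103) and ENO1 by 1.25 ± 0.16 (adjusted p = 0.00139). LDHB followed at 1.08 ± 0.18 (adjusted p = 0.00885), PGK1 at 0.83 ± 0.15 (adjusted p = 0.0153) and GAPDH at 0.86 ± 0.19 (adjusted p = 0.0446). In HUVEC the same 5 genes gave between -0.23 and -0.02. TPI1 did not pass (0.39 ± 0.12, adjusted p = 0.179).

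**Figure D5:**
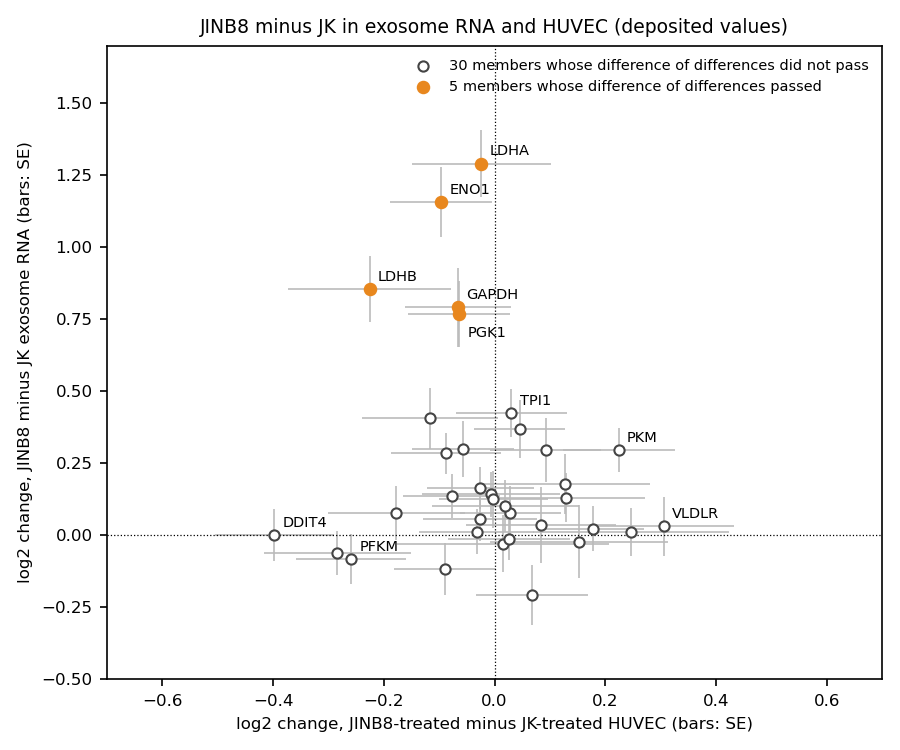
JINB8 minus JK log2 difference in treated HUVEC (x axis) and in exosome RNA (y axis) for the 35 genes, both on deposited values, with limma's SE as bars and filled points where the interaction passed. LDHA and ENO1 lie at 1.29 and 1.16 on the y axis and at -0.02 and -0.10 on the x axis, and DDIT4 lies farthest left, at -0.40.

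Finally, exosome RNA of both lines was set against treated HUVEC of both kinds. As deposited 34 of the 35 genes were lower in exosome RNA and none higher, against 49.7% lower and 45.3% higher among all genes. Their median was -2.91, that of all genes -0.13. P4HA1 differed by -4.90 ± 0.10 and SLC2A1 by -4.66 ± 0.09, whereas EGLN3 differed by -0.61 ± 0.11, and PFKFB4 did not pass (-0.09 ± 0.06, adjusted p = 0.159). These sizes rest on scaling: the interquartile range of log2 values was 1.91 to 1.99 on exosome RNA arrays and 3.32 to 3.43 on treated HUVEC arrays. After quantile normalization of the 12 arrays 27 were lower and 7 higher, against 41.1% lower and 51.6% higher among all genes. After cyclic loess 14 were lower and 16 higher with a median of 0.066, near the 41.4% lower and 49.0% higher among all genes. The direction for the set is thus not settled.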

How the data were processed

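Total RNA, 300 ng per sample, from HUVEC and from exosomes was labelled with whole-transcript kits, per the labels' protocols. The authors' deposited table holds values that fit a log2 scale. Per the submitters' processing notes the authors used Affymetrix Expression Console (version not stated). Background correction and normalization were not given in the sources used here. Of 33297 probesets 19460 had 1 symbol, 1754 had several and 12083 were not listed in the platform annotation; the brightest of a gene gave 18417 genes.

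The 9 HUVEC arrays were fitted in 1 model (R 4.3.3, limma 3.58.1, lmFit and eBayes), quantile-normalized for comparisons with untreated cells and as deposited otherwise; exosome RNA had a fit of 6 arrays, and the interaction one of 12. P-values were adjusted by Benjamini-Hochberg over 18417 genes at 0.05. The fit was tested on simulated data. The genes, lists and tests were chosen with earlier results of these data known. All 35 genes are named, and of each further list up to 4 with the smallest p with JK exosomes.

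Alternatives were other normalizations (median centring, cyclic loess, quantile over 15 arrays, none), leaving out the 40% dimmest genes, the mean of a gene's probesets, all rows, a variance trend, array weights, the compared groups alone, an unadjusted p with a 1.5-fold change, a replicate block and leaving out each array; quantile normalization before choosing probesets was added after seeing the data. Promoters are RefSeq's (GRCh38.p14), 250 bases before the start; no promoter of SLC2A3, BNIP3L or NDRG1 was used.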

Additional observations from a re-analysis of the deposited data

Results flagged for a closer look

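For 5 genes the JINB8 against JK difference was larger in exosome RNA than in treated HUVEC by the interaction test over 12 arrays (limma, adjusted over all genes). LDHA gave 1.31 ± 0.15 (adjusted p = 0.00103), ENO1 1.25 ± 0.16 (adjusted p = 0.00139), LDHB 1.08 ± 0.18 (adjusted p = 0.00885), GAPDH 0.86 ± 0.19 (adjusted p = 0.0446) and PGK1 0.83 ± 0.15 (adjusted p = 0.0153). LDHA and ENO1 kept this call in 23 of 23 analyses, LDHB in 22, PGK1 in 21 and GAPDH in 8, with adjusted p-values from 0.0168 to 0.730; the last came with quantile normalization over 15 arrays (0.18).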

How the results depend on the processing

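Directions against untreated HUVEC rested on normalization. As deposited, 5 genes were higher and 21 lower with JK exosomes and 6 and 22 with JINB8, with medians of -0.69 and -0.73. Negative there, against positive after quantile normalization, were (JK and JINB8) HK2 -0.26 and -0.18, GPI -0.80 and -0.89, PFKL -0.99 and -1.17, PFKM -1.23 and -1.49, PFKP -1.13 and -1.19, TPI1 -0.35 and -0.32, PGK1 -0.82 and -0.88, ENO1 -0.50 and -0.60, LDHA -0.24 and -0.26, LDHB -0.80 and -1.03, PFKFB3 -0.85 and -0.84, PFKFB4 -1.17 and -1.14, PDK1 -0.10 and -0.13, PDK3 -0.52 and -0.80, EGLN1 -1.17 and -1.15, KDM3A -0.69 and -0.72, ANKRD37 -0.14 and -0.076, MXI1 -1.28 and -1.28, BNIP3L -0.70 and -0.73, P4HA2 -0.74 and -0.81, DDIT4 -0.12 and -0.52, and PKM -1.17 with JINB8 and BNIP3 -0.032 with JINB8. Median centring left 1 gene lower in each comparison, and turned GAPDH to 0.61 and 0.60 and PKM, with JK exosomes, to 0.39. The rule of an unadjusted p with a 1.5-fold change called 21 higher with JK and 20 with JINB8, and also left 1 lower in each. Leaving out 1 array in turn gave 28 to 29 higher and 2 to 3 lower with JK, and 25 to 26 and 2 to 3 with JINB8; the count of 2 lower came without untreated replicate 1 or 2 and, for JK, without JK-treated replicate 1. The other alternatives left these counts within 1.5 times.

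Between treated groups array weights gave 1 lower, with 1.30% of all genes higher and 0.749% lower. In exosome RNA, testing all rows left 3 higher (0.523% of all rows were higher). Leaving out 1 array gave 4 to 5, so each omission lost at least 1 of the 6 calls. The share of all genes higher was then 0.288% to 0.521%, against 0.668% with all 6 arrays. Against HUVEC, exosome RNA had 7 genes higher with either quantile normalization, 1 with median centring and 16 with cyclic loess (14 lower, median 0.066). Of all genes 51.6% were higher with either quantile normalization, 51.8% with median centring and 49.0% with cyclic loess. The interaction kept 2 genes with cyclic loess and 3 to 5 without 1 array, the 3 without JK-treated replicate 2. Of all genes 0.168% were higher with cyclic loess and 0.288% to 1.35% without 1 array. Deviations of same-numbered samples correlated at -0.41 to -0.14 between treated groups and at -0.076 to 0.24 in the other pairs of groups. These values cannot settle whether samples were paired, by these numbers or in another order, and the labels do not say. With a replicate block the calls against untreated cells stayed at 30 and 27 higher and 4 lower. Exosome RNA then had 5 higher (0.554% of all genes) and the interaction 4 (0.342%). No detection call came with the values, so dim genes have no stated background.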
